A study of Mus musculus with 12 samples.

Results

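The genes of the lysosome were examined in the livers of 12 C57BL/6 mice, with 1 expression array for each mouse. The set was listed by function and held 47 genes: 12 cathepsins, 17 other hydrolases, 8 activators, membrane proteins and regulators, and 10 subunits of the vacuolar proton pump (V-ATPase). A probe set was named for 46 of them, and all 46 passed the filter on dim signals, out of 11099 genes represented on the arrays. Atp6v0c, the proteolipid subunit of the pump, was not analysed here. The labels name no engineered allele. The mice entered the feeding at 8 weeks of age and were fed for 8 weeks, and their livers were labelled as fasting. The groups of 4 mice received normal chow (NC), a methionine- and choline-deficient diet with high fat (MCD+HF), or the MCD+HF diet into which 0.1% metformin had been mixed (MCD+HF+Met). The MCD diet is a dietary model of steatohepatitis in which mice are known to lose weight rather than become obese, which limits it as a model of the human disease. No group received metformin on normal chow, so the drug was compared only within the MCD+HF diet.

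The lysosome is the compartment in which cells break down proteins, lipids, glycans and whole organelles. Its hydrolases work at acid pH, and the V-ATPase keeps the lumen acid by pumping protons across the membrane at the cost of ATP. In the liver, hepatocytes use lysosomes for autophagy, while Kupffer cells and recruited macrophages use them to digest what they have engulfed. Many lysosomal genes are known targets of TFEB, a transcription factor that binds an E-box motif in their promoters and that is held in the cytoplasm by phosphorylation at the lysosomal surface.

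With the MCD+HF diet the share of higher genes was larger in the lysosomal set than over all genes. The share of lower genes was close to that over all genes. Against NC, 20 of the 46 genes were higher (43.5%) and 9 were lower (19.6%) in MCD+HF, where the shares over all genes were 27.4% higher and 20.8% lower. With metformin, 7 of the 46 genes were lower in MCD+HF+Met than in MCD+HF (15.2%) and 0 were higher by limma, where the shares over all genes were 2.34% lower and 1.63% higher. At an unadjusted p under 0.05 in limma, 2 genes were higher with metformin and 11 were lower. The shares of all genes at that looser threshold were not counted, so these counts cannot be set beside 2.34% and 1.63%. Between MCD+HF+Met and NC, 16 genes were higher (34.8%) and 8 were lower (17.4%), beside 25.6% and 18.6% of all genes. A gene was called where its adjusted p was under 0.05 in limma. The median change of the 46 genes was 0.25 with the diet and -0.06 with metformin, in log2(signal + 10), beside 0.05 and 0.01 over all genes. The 3 comparisons share arrays, so that a high value in the MCD+HF mice enters the diet and the metformin comparison with opposite signs. For this reason the values of each comparison are given side by side and are not set against each other.

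**Figure D1:**
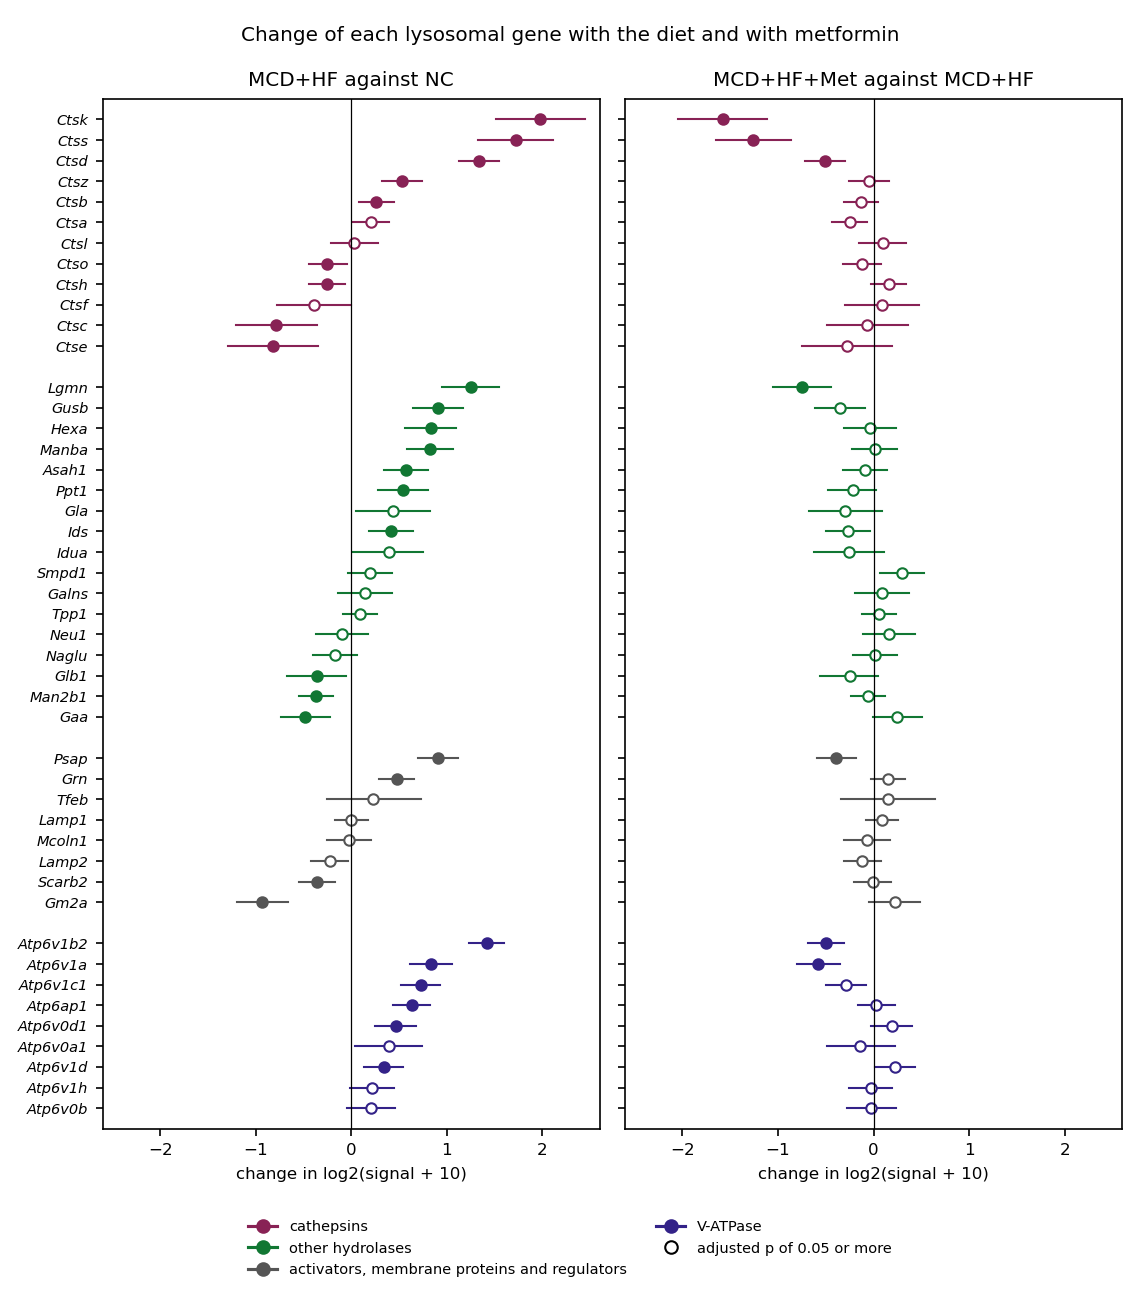
Change in log2(signal + 10) of each of the 46 genes with the diet (left) and with metformin (right), with 95% confidence intervals as lines, 4 mice per group. Filled points were called at an adjusted p under 0.05; 6 of the 9 measured V-ATPase genes are filled with the diet, all above 0, and the 7 filled points on the right are Ctsk, Ctss, Ctsd, Lgmn, Psap, Atp6v1a and Atp6v1b2.

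The promoters of several of these genes held the E-box CACGTG, which reads the same on both strands. RefSeq promoter windows of the GRCm38.p6 build, from 250 bases before to 50 after the start, were matched for 38 of the 46 genes. The motif was found in 14 of the 38 (36.8%), where 8.09% of the 27025 genes of the table held it in a window. The longer core TCACGTGA, which contains the E-box, was found in 6 of the 38 (15.8%), where 1.12% of all genes held it. By response, the E-box was in 4 of the 16 matched genes that rose with the diet, in 2 of the 7 that fell and in 8 of the 15 that were not called. Of the genes that were lower with metformin, 6 were matched and 3 held it, namely Ctsd, Lgmn and Atp6v1a. The 250 bases before the start are shown for a pair of these, Ctsd and Atp6v1a, which hold the core, and for Ctsk and Ctss, which had the largest changes among the cathepsins and hold no E-box in the window. Capitals mark the E-box, and each sequence is written 5′ to 3′ on the strand of its gene.
Ctsd (chr7:142387828-142388077, minus strand): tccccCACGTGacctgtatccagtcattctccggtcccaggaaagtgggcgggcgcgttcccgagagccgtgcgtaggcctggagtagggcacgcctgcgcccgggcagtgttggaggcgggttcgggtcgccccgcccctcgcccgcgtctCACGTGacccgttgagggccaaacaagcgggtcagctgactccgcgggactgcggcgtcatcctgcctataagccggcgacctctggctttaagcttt
Atp6v1a (chr16:44139260-44139509, minus strand): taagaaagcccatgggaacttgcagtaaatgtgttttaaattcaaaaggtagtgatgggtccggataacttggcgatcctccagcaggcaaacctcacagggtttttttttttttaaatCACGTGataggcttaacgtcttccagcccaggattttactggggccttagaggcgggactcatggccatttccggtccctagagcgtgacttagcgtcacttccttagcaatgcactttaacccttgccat
Ctsk (chr3:95498960-95499209, plus strand): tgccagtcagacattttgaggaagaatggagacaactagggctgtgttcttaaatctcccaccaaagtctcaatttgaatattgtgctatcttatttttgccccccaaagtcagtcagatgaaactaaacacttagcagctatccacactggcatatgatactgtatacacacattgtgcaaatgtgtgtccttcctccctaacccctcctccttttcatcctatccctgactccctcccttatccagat
Ctss (chr3:95526536-95526785, plus strand): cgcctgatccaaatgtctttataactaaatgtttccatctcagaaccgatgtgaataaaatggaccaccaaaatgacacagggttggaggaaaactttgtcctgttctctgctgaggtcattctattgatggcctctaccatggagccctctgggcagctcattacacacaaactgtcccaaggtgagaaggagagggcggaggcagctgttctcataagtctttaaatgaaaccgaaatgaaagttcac
Ctsk and Ctss lie near each other on chromosome 3. A match of letters is a description of the window and not a measurement of binding.

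Of the 12 cathepsins, 5 were higher (41.7%) and 4 lower (33.3%) with the diet, beside 27.4% and 20.8% of all genes. With metformin 3 were lower (25%, beside 2.34%), and in MCD+HF+Met against NC 2 were higher (16.7%) and 3 lower (25%), beside 25.6% and 18.6%. Ctsk and Ctss changed most. Cathepsin K, known as the collagen-degrading protease of osteoclasts and also made by activated macrophages, had a Ctsk signal of 32.6, 30.7, 26.0 and 12.6 in the NC mice, 141, 163, 85.6 and 124 in the MCD+HF mice, and 48.6, 32.5, 32 and 29.7 in the MCD+HF+Met mice. No MCD+HF mouse overlapped with either of the other groups, whose own ranges met. The signal was 3.92-fold higher with the diet (log2 change 1.97 ± 0.22, SE, adjusted p = 3.0e-06) and 2.99-fold lower with metformin (log2 change -1.58 ± 0.22, adjusted p = 0.00146), both in log2(signal + 10). These folds understate the change of a gene as dim as Ctsk was in NC mice. Between MCD+HF+Met and NC the log2 difference was 0.39, with a 95% confidence interval from -0.08 to 0.86, and was not called.

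Cathepsin S, which trims the invariant chain of MHC class II in antigen-presenting cells, followed the same order. The Ctss signal was 1020.4, 922, 855 and 563 in the NC mice, 3473, 3181, 2014 and 2487 in the MCD+HF mice, and 1018, 978, 1304 and 1276 in the MCD+HF+Met mice. Every MCD+HF mouse was above every mouse of the other groups, and the other groups overlapped. With the diet the signal was 3.30-fold higher (adjusted p = 2.2e-06, limma), and with metformin it was 2.39-fold lower (adjusted p = 0.00216). In MCD+HF+Met it stood 0.46 above NC on the log2 scale and was not called (adjusted p = 0.0594).

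Cathepsin D, the main aspartic protease of lysosomes in most cells, was intermediate with metformin. The Ctsd signal was 821, 865, 807 and 939.6 in the NC mice, 2428, 2464, 1816 and 2090.2 in the MCD+HF mice, and 1602, 1510.5, 1558 and 1466 in the MCD+HF+Met mice. The 3 groups did not overlap, and the MCD+HF+Met mice lay between the other two. The rise with the diet was 2.53-fold (adjusted p = 4.5e-08) and the fall with metformin 1.42-fold (adjusted p = 0.0124), which left MCD+HF+Met 1.78-fold above NC (adjusted p = 8.1e-06). Without MCD+HF replicate 2 the metformin call was lost (log2 change -0.45, adjusted p = 0.057).

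Ctsz and Ctsb, a carboxypeptidase and a broadly expressed cysteine protease, completed the 5 cathepsins that rose with the diet, by 0.53 and 0.26 in log2(signal + 10). Ctsz was still higher in MCD+HF+Met than in NC (0.48, adjusted p = 0.00107). Neither was called with metformin, at -0.05 for Ctsz and -0.13 for Ctsb. The diet call of Ctsb was lost without NC replicate 4, without MCD+HF replicate 1 or without MCD+HF replicate 2, with an adjusted p of up to 0.0657.

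Cathepsins E and C had the largest falls of the class with the diet. Cathepsin E is an aspartic protease of endosomes, and cathepsin C activates the serine proteases of granules. The Ctse signal was 236, 141, 302 and 138 in the NC mice, 87.3, 95.3, 122 and 118 in the MCD+HF mice, and 77.1, 76.1, 72.7 and 119 in the MCD+HF+Met mice. The NC mice did not overlap with either diet group, while both diet groups overlapped. Ctse changed in log2 by -0.82 with the diet (adjusted p = 0.00681) and by -1.11 in MCD+HF+Met against NC (adjusted p = 9.4e-04). A second, dimmer probe set of Ctse went the other way, changing by 0.91 in log2 with the diet (adjusted p = 7.6e-04), so that the direction of this gene depends on the probe set.

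The Ctsc signal was 1956, 2009, 1872 and 1075 in the NC mice, 1092, 850.3, 966 and 976 in the MCD+HF mice, and 861, 670.5, 944 and 1326 in the MCD+HF+Met mice. NC replicate 4 was far below the other NC mice and within the range of the diet groups. The log2 change was -0.79 with the diet (adjusted p = 0.00473), -0.07 with metformin (not called) and -0.86 in MCD+HF+Met against NC (adjusted p = 0.00307). Ctsh, an aminopeptidase, and Ctso made up the 4 cathepsins that were lower with the diet, with log2 changes of -0.26 and -0.25. Neither call was firm: that of Ctso was lost when any 1 of 8 mice was left out, that of Ctsh when any 1 of 4 was, and Ctsh turned to 0.06 under quantile normalization. The probe sets used for Ctsa, Ctsf and Ctsl were not called in any comparison, but none of these genes was settled. Ctsl, a broadly expressed cysteine protease, changed by 0.03 with the diet, with an interval from -0.21 to 0.28. Under quantile normalization it changed by 0.63 with the diet (adjusted p = 4.5e-05) and by 0.58 in MCD+HF+Met against NC (adjusted p = 1.1e-04), and its second probe set was called higher in both (0.58 and 0.63). Quantile normalization also called Ctsa higher (0.23, adjusted p = 0.0461) and Ctsf lower (-0.53, adjusted p = 0.0348) with the diet, while the second probe set of Ctsa was called lower with the diet (-0.48, adjusted p = 0.0397) and in MCD+HF+Met against NC (-0.53, adjusted p = 0.0283).

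**Figure D2:**
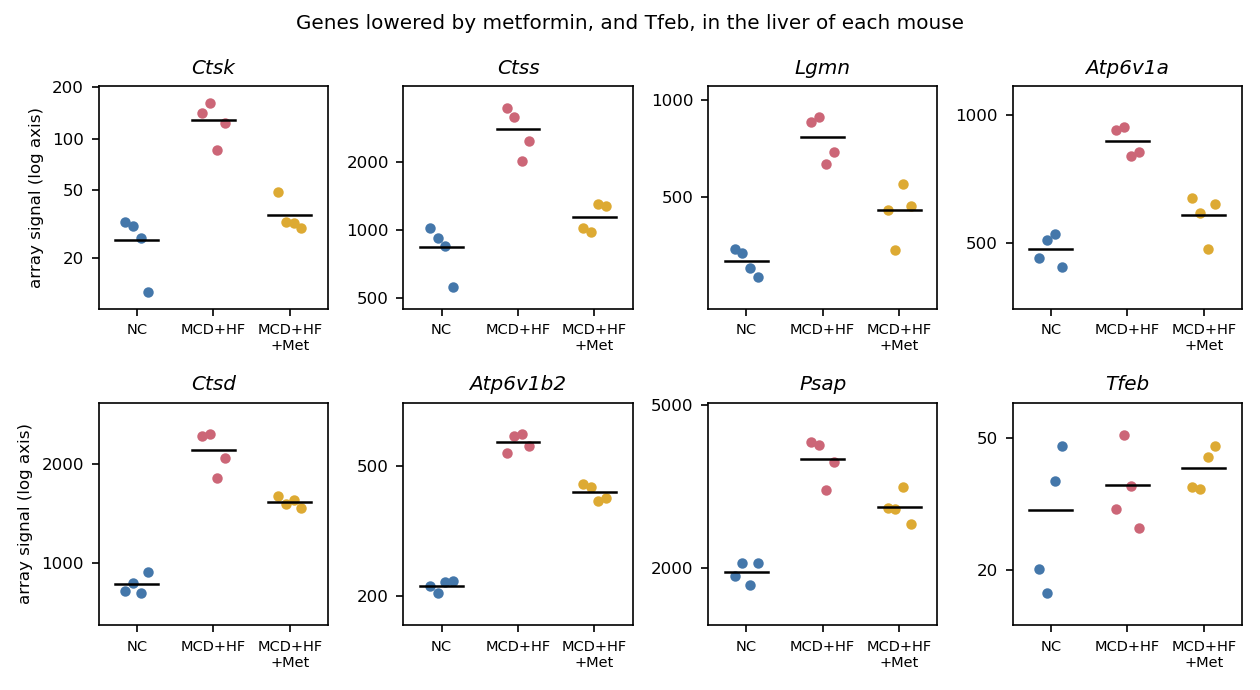
Array signal in the liver of each mouse (log axis) for the 7 lysosomal genes that were lower with metformin and for Tfeb, with a line at the group mean of 4 mice. In 6 of the 7 genes every MCD+HF mouse is above every MCD+HF+Met mouse, Psap being the exception, and Tfeb overlaps across all groups. The 7 genes were picked by their call in this comparison, so that their separation is no further support. Of all 46 genes, 10 were lower with metformin without overlap, some of them not called. The share of all genes on the arrays that separate in this way was not counted, so no enrichment can be read from this count.

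Of the 17 other hydrolases, 7 were higher (41.2%) and 3 lower (17.6%) with the diet, beside 27.4% and 20.8% of all genes. With metformin 1 was lower (5.88%, beside 2.34%), and in MCD+HF+Met against NC 7 were higher (41.2%) and 2 lower (11.8%), beside 25.6% and 18.6%. Legumain, the asparaginyl endopeptidase that processes cathepsins to their mature forms, rose most. The Lgmn signal was 343, 334, 299 and 279.7 in the NC mice, 855, 884, 633 and 686 in the MCD+HF mice, and 454, 341, 547 and 468 in the MCD+HF+Met mice. The MCD+HF mice stood apart from both other groups, and 1 MCD+HF+Met mouse reached into the NC range. Lgmn was 2.38-fold higher with the diet (adjusted p = 3.8e-06), 1.68-fold lower with metformin (adjusted p = 0.00984) and 1.41-fold above NC in MCD+HF+Met (adjusted p = 0.0109).

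The enzymes that degrade glycans and sphingolipids were divided. Beta-glucuronidase, which removes glucuronic acid from glycosaminoglycans, had a Gusb signal of 181, 228, 185 and 194 in the NC mice, 392, 427, 366 and 331 in the MCD+HF mice, and 247, 280.4, 308 and 351 in the MCD+HF+Met mice. Both diet groups lay above NC, and they overlapped with each other. The rise with the diet was 1.88-fold (adjusted p = 2.0e-05), and the change with metformin was -0.35 on the log2 scale with an interval from -0.61 to -0.09 (adjusted p = 0.125, not called). A second, dimmer probe set of Gusb was not called in limma. It gave 0.32 with the diet (adjusted p = 0.207) and -0.26 in MCD+HF+Met against NC (adjusted p = 0.316). Hexa, which encodes the alpha chain of beta-hexosaminidase, rose by 0.83 with the diet, and Manba, the beta-mannosidase, by 0.82. Asah1, the acid ceramidase, rose by 0.57, Ppt1, which removes palmitate from proteins, by 0.54, and Ids, the iduronate sulfatase, by 0.41. All of these but Ids were also higher in MCD+HF+Met than in NC, with log2 differences from 0.32 for Ppt1 to 0.83 for Manba, and the call of Ppt1 was lost when any 1 of 10 mice was left out (adjusted p of up to 0.134).

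The 3 hydrolases that fell with the diet were Gaa, Man2b1 and Glb1. Gaa encodes acid alpha-glucosidase, which breaks down glycogen in lysosomes, and its signal was 193, 208, 152 and 184 in the NC mice, 122, 121, 123 and 147 in the MCD+HF mice, and 131, 165, 152 and 172 in the MCD+HF+Met mice. Every NC mouse was above every MCD+HF mouse, and the MCD+HF+Met mice overlapped with both. Gaa changed by -0.48 with the diet (adjusted p = 0.00466) and by 0.25 with metformin (not called). The signal of Man2b1, the lysosomal alpha-mannosidase, was 1213, 1244, 1205 and 1251 in the NC mice, 859, 934, 1036 and 966 in the MCD+HF mice, and 919, 996, 839 and 882 in the MCD+HF+Met mice. The NC mice lay within a narrow range above all mice of both diet groups. Man2b1 changed by -0.37 with the diet (adjusted p = 0.00217) and by -0.43 in MCD+HF+Met against NC (adjusted p = 7.8e-04), although its second probe set gave 0.04 with the diet. Glb1, the beta-galactosidase, fell by 0.36 on the log2 scale with the diet, a call that was lost when any 1 of 8 mice was left out. Smpd1, the acid sphingomyelinase, was called higher in MCD+HF+Met against NC (0.50, adjusted p = 0.00184), where its second probe set gave -0.30 (not called). With the diet the probe set used gave 0.20 (not called) and the second was called lower (-0.51, adjusted p = 0.0306). The probe sets used for Gla, Galns, Idua, Naglu, Neu1 and Tpp1 were not called in any comparison, and their log2 changes with the diet ran from -0.17 for Naglu to 0.44 for Gla. The second probe set of Tpp1, a tripeptidyl peptidase, was called higher with the diet (0.62, adjusted p = 0.00114) and in MCD+HF+Met against NC (0.71, adjusted p = 4.3e-04). Under quantile normalization Tpp1 was called higher (0.24, adjusted p = 0.0175) and Naglu lower (-0.29, adjusted p = 0.0365) with the diet.

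The activators were split between Psap and Gm2a. Psap encodes prosaposin, the precursor of the saposins that present sphingolipids to their hydrolases. Its signal was 1909.9, 2051, 1811 and 2061 in the NC mice, 4067, 3998, 3108 and 3636 in the MCD+HF mice, and 2796, 2783, 3150.5 and 2568 in the MCD+HF+Met mice. Both diet groups were above NC, and MCD+HF replicate 3 was just below MCD+HF+Met replicate 3. Psap was 1.88-fold higher with the diet (adjusted p = 1.9e-06) and 1.31-fold lower with metformin (adjusted p = 0.0396). The metformin call was lost when any 1 of 8 mice was left out, with an adjusted p of up to 0.126; the second Psap probe set gave a log2 change of -0.50 (adjusted p = 0.0128).

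Gm2a encodes the activator that lifts GM2 ganglioside out of the membrane for beta-hexosaminidase. The Gm2a signal was 649, 801, 648 and 845 in the NC mice, 387, 411, 358 and 359 in the MCD+HF mice, and 516, 457, 469 and 343 in the MCD+HF+Met mice. All NC mice were above all mice of both diet groups. The log2 change was -0.93 with the diet (adjusted p = 2.5e-05), 0.22 with metformin (not called) and -0.71 in MCD+HF+Met against NC (adjusted p = 3.6e-04). Hexa, whose product acts with this activator, had changed by 0.83 with the diet.

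Grn and Scarb2 also moved in opposite directions with the diet. Grn encodes progranulin, a secreted and lysosomal protein abundant in macrophages, and its signal was 744, 769, 812 and 735 in the NC mice, 1038, 994, 1158 and 1090.5 in the MCD+HF mice, and 1059, 1193, 1228 and 1279 in the MCD+HF+Met mice. Both diet groups lay above NC and overlapped with each other, and Grn changed by 0.48 in log2 with the diet (adjusted p = 3.4e-04) and by 0.15 with metformin (not called). Scarb2 encodes LIMP-2, the membrane protein that carries glucocerebrosidase to the lysosome. The Scarb2 signal was 2425, 2318, 2367 and 2480.0 in the NC mice, 1781, 1846, 1691 and 2169 in the MCD+HF mice, and 2019.5, 1896, 1856 and 1648 in the MCD+HF+Met mice. All NC mice were above both diet groups, and Scarb2 changed by -0.36 in log2 with the diet (adjusted p = 0.00439); under quantile normalization the call was lost (adjusted p = 0.703).

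LAMP-1 and LAMP-2 are the most abundant proteins of the lysosomal membrane. The probe sets used for their mRNAs were not called with the diet. Lamp1 changed by -0.00, with an interval from -0.17 to 0.17, but by 0.35 under quantile normalization (adjusted p = 6.4e-04), so that the call of this bright gene depends on the scaling. The Lamp2 probe set of highest signal changed by -0.22 with the diet (adjusted p = 0.0603) and by -0.34 in MCD+HF+Met against NC (adjusted p = 0.00806), a call that was lost under quantile normalization (adjusted p = 0.745). Its further probe sets, described below, were called lower in both comparisons, at -0.57, -1.24 and -1.31 with the diet. Mcoln1, the calcium channel of the lysosome, changed by -0.02 with the diet, with an interval from -0.26 to 0.21.

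Tfeb itself was dim on the arrays. Its signal was 20.1, 17.0, 37.0 and 47.5 in the NC mice, 30.6, 51.3, 35.9 and 26.8 in the MCD+HF mice, and 35.7, 35.2, 43.9 and 47.5 in the MCD+HF+Met mice. The groups overlapped in every comparison, and the NC mice alone ranged more widely than the other 8 mice together. The log2 change was 0.23 with the diet, with an interval from -0.26 to 0.73, and 0.15 with metformin, with an interval from -0.34 to 0.64. These intervals hold changes of up to 0.73 upward and -0.34 downward, so the mRNA level was not resolved below that size. The activity of TFEB, which is set by its location in the cell, was not measured by the arrays.

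Of the 9 measured V-ATPase genes, 6 were called higher with the diet (66.7%) and 0 lower by limma, where 27.4% of all genes were called higher and 20.8% lower. The other 3 were not called. Their median change was 0.47 in log2(signal + 10), beside 0.05 over all genes. With metformin 2 were lower (22.2%), where the share over all genes was 2.34%, and against NC 5 were higher in MCD+HF+Met (55.6%, beside 25.6%). Leaving out any 1 mouse gave 6 to 7 genes higher with the diet and 2 lower with metformin.

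The largest rise was in Atp6v1b2, which encodes a B subunit of the V1 sector that, with the A subunit, binds and hydrolyses ATP. Its signal was 215, 204, 221 and 223 in the NC mice, 551, 619, 628 and 578 in the MCD+HF mice, and 442, 433, 391 and 401 in the MCD+HF+Met mice. The 3 groups did not overlap. Atp6v1b2 was 2.67-fold higher with the diet (adjusted p = 6.6e-09), 1.42-fold lower with metformin (adjusted p = 0.00667) and 1.89-fold above NC in MCD+HF+Met (adjusted p = 8.5e-07).

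Atp6v1a encodes the catalytic A subunit. The Atp6v1a signal was 462, 509, 525 and 439 in the NC mice, 923, 935, 802 and 818 in the MCD+HF mice, and 639, 587, 484 and 616 in the MCD+HF+Met mice. All MCD+HF mice were above all others, and 1 MCD+HF+Met mouse was within the NC range. The change was 1.78-fold higher with the diet (adjusted p = 1.1e-05) and 1.49-fold lower with metformin (adjusted p = 0.00789). The second probe sets of both subunits rose with the diet too, by 0.95 for Atp6v1a and 0.79 for Atp6v1b2. With metformin they gave -0.28 (adjusted p = 0.157) and -0.25 (adjusted p = 0.242), so that both metformin calls rest on the brighter probe set.

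The other subunits that rose with the diet were Atp6v1c1 and Atp6v1d of the V1 stalk, by 0.73 and 0.34, Atp6v0d1, which joins V1 to the membrane sector V0, by 0.47, and the accessory subunit Atp6ap1, by 0.63. None of these was called with metformin, where the log2 changes ran from -0.29 for Atp6v1c1 to 0.22 for Atp6v1d, and all 4 were higher in MCD+HF+Met than in NC. The probe sets used for Atp6v0a1, Atp6v0b and Atp6v1h were not called in any comparison, at 0.39, 0.21 and 0.22 with the diet. Further probe sets of these 3 genes differed: those of Atp6v0a1 gave 0.25, -0.22 and -0.06 (none called), and that of Atp6v1h gave 0.73 (adjusted p = 0.00583). Of a pair for Atp6v0b, 1 gave 0.38 (adjusted p = 0.0182), and 0.64 in MCD+HF+Met against NC (adjusted p = 6.5e-04), and the other gave -0.22 (not called). Subunits of 1 complex are not replicates of a condition, and each value above rests on the same 12 mice.

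**Figure D3:**
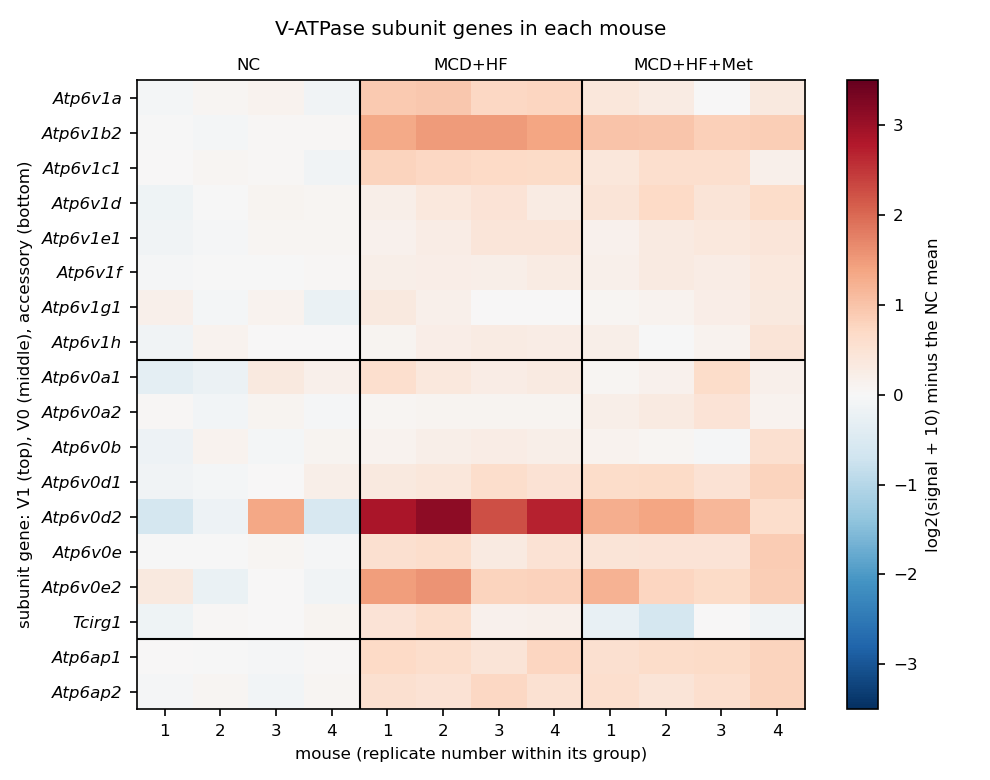
Log2(signal + 10) of the V-ATPase subunit genes in each mouse, relative to the mean of the 4 NC mice (colour scale), for the 9 measured genes of the set and 9 further subunit genes. The MCD+HF columns are above the NC mean for nearly every subunit, and Atp6v0d2 is the most deeply coloured.

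Further lysosomal genes outside the set were counted from lists by function, 76 of 94 being measured. Of these, 29 were higher and 7 lower with the diet (38.2% and 9.21%, beside 27.4% and 20.8% of all genes). With metformin 6 were lower (7.89%, beside 2.34%) and 0 higher by limma, and in MCD+HF+Met against NC 26 were higher and 6 lower (34.2% and 7.89%, beside 25.6% and 18.6%). Of the 9 further V-ATPase genes, 6 were called higher with the diet (66.7%, beside 27.4% of all genes). Atp6v0d2, an isoform of the d subunit known from osteoclasts and macrophages, had a signal of 32.5, 47.7, 157 and 34.4 in the NC mice, 459, 561, 300.2 and 408 in the MCD+HF mice, and 147, 160.3, 137 and 90.6 in the MCD+HF+Met mice. All MCD+HF mice were above all other mice, and 1 NC mouse lay among the MCD+HF+Met mice. The log2 change was 2.73 with the diet (adjusted p = 9.2e-06) and -1.61 with metformin (adjusted p = 0.0175). Atp6v0e2 rose by 1.16 with the diet, and Tcirg1, the a3 isoform of the pump in osteoclasts and macrophages, was lower with metformin (-0.60, adjusted p = 0.0339) without a call for the diet (0.36, adjusted p = 0.0556).

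Of the 19 further hydrolases, 3 were higher (15.8%, beside 27.4% of all genes) and 5 lower (26.3%, beside 20.8%) with the diet. Galc, the galactosylceramidase, rose by 1.06, and Lipa, the acid lipase that hydrolyses cholesteryl esters and triglycerides in lysosomes, by 0.94. Lipa was lower with metformin (-0.33, adjusted p = 0.0376), and Galc was not called (-0.44, adjusted p = 0.0671). The largest falls with the diet in this list were -0.62 for Pla1a, a phospholipase, and -0.41 for Nagpa, which uncovers the mannose 6-phosphate tag. Neither product is a hydrolase of the lysosome itself, although both genes are in the counts of the list. Of the 16 further membrane and lumen proteins, 7 were higher (43.8%, beside 27.4% of all genes) and 0 lower (beside 20.8%) with the diet. Slc29a3, a nucleoside transporter, rose by 0.97, and Slc11a1, the metal transporter of macrophage phagosomes, by 0.88. With metformin Slc11a1 changed by -0.91 (adjusted p = 0.0048) and Npc2, the cholesterol carrier of the lumen, by -0.43 (adjusted p = 0.0145).

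Of 15 genes for sorting to lysosomes, 5 were higher with the diet (33.3%, beside 27.4% of all genes) and 0 were called in either direction with metformin. Gnptab, which makes the mannose 6-phosphate tag, rose by 0.82, and Igf2r, a receptor of that tag, by 0.60. Of 15 genes for transcription factors and nutrient sensing, 6 were higher (40%, beside 27.4%) and 2 lower (13.3%, beside 20.8%) with the diet and 0 were called with metformin. Rragd, a GTPase that recruits mTORC1 to lysosomes, rose by 1.85, and Lamtor3, a part of its anchor, by 0.97. Zkscan3, known as a repressor of lysosomal and autophagy genes, changed by -0.55, and Lamtor2, of the same anchor, by -0.25. Of the inhibitors of cathepsins, Cstb rose with the diet by 1.40 and Cst3 by 0.29, and Cst3 was lower with metformin (-0.38, adjusted p = 0.0232).

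The array holds several probe sets for many of these genes, and the values above are those of the brightest probe set of each gene. Further probe sets were kept for 30 of the 46 genes, 43 in all. Of the 26 that belong to genes called with the diet, 16 gave the same call, 9 were not called and 1, of Ctse, gave the opposite call. Ctsb and Lamp2 were chosen for a closer description after their values were seen. For Ctsb, the probe set used gave 0.26 with the diet and -0.13 with metformin.

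The brightest of the 4 further Ctsb probe sets was close to the one used, at 0.34 with the diet (adjusted p = 0.0333) and -0.28 with metformin (adjusted p = 0.218), and the dimmest gave 0.76 (adjusted p = 0.0108) and -0.44 (adjusted p = 0.299). The brighter of the other two had a signal of 214, 268, 187 and 218 in the NC mice, 788, 919, 636 and 657 in the MCD+HF mice, and 389.5, 329.5, 369 and 477 in the MCD+HF+Met mice. The groups did not overlap, and the log2 change was 1.71 with the diet and -0.92 with metformin (adjusted p = 0.00312). The remaining one gave 1.41 and -0.82 (adjusted p = 0.0024), also with no overlap between groups. For Lamp2 the 3 further probe sets gave -0.57, -1.24 and -1.31 with the diet, all called, beside -0.22 for the one used, and none was called with metformin. The cause of these differences between probe sets was not tested.

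**Figure D4:**
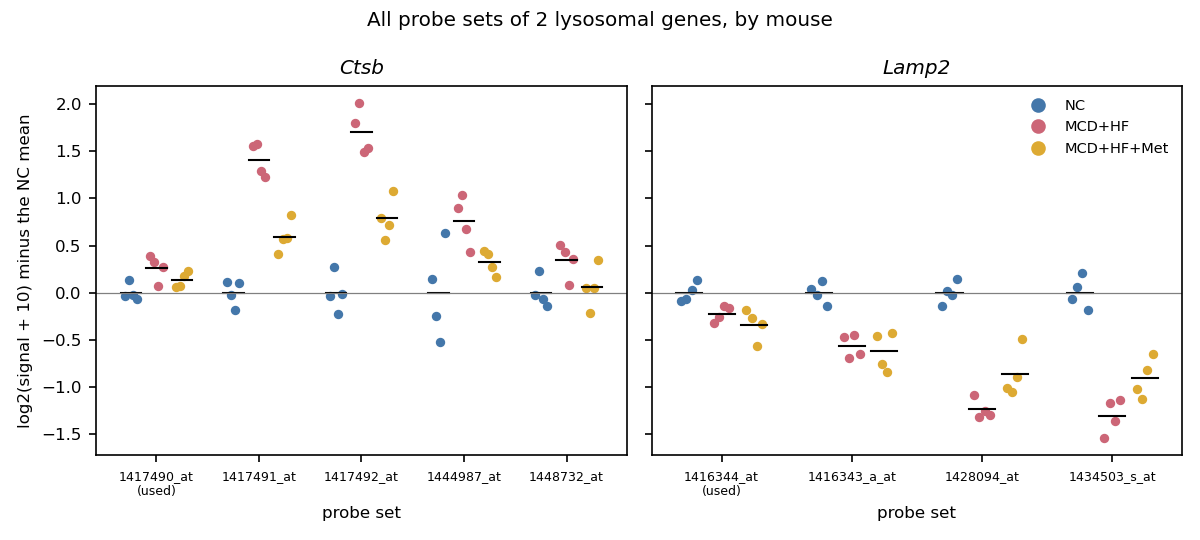
Log2(signal + 10) minus the NC mean for every kept probe set of Ctsb (left) and Lamp2 (right), 1 point per mouse and a line at each group mean. The probe set marked as used has the smallest shift with the diet in both genes.

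Marker lists of several cell types of the liver differed between the groups, though not all in the same order. As the RNA came from whole liver, fewer cells of a type and less RNA per cell cannot be told apart. A list of macrophage and Kupffer cell markers, 19 of 20 measured, had a mean log2 level of 8.03 ± 0.14 in the NC group, 8.70 ± 0.10 with the MCD+HF diet and 8.17 ± 0.33 with metformin added (SD, n = 4). Of these 19 markers, 13 were higher (68.4%) and 2 lower (10.5%) with the diet, beside 27.4% and 20.8% of all genes. With metformin 7 were lower (36.8%, beside 2.34%). Their summed signal ran from 6638 to 7986 among NC mice, from 10919 to 13993 among MCD+HF mice and from 5533 to 9582 among MCD+HF+Met mice. Lyz2, the lysozyme of myeloid cells, changed by 2.21 and -1.46, and Cd68, itself a lysosomal membrane protein of macrophages, by 2.35 and -1.29, with the diet and with metformin. Clec4f and Timd4, which mark resident Kupffer cells, changed by -1.36 and -1.30 with the diet and were called lower. Other markers of the list did not follow them: Marco was called higher (1.45), and Cd5l (-0.40) and Vsig4 (-0.27) were not called. The Marco signal was uneven, at 121.7, 70.8, 592.4 and 143.9 in the MCD+HF mice, and the lowest of these lay within the NC range.

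Markers of lipid-associated and recruited macrophages, 8 of 10 measured, stood at a mean log2 level of 5.62 ± 0.22 in the NC group, 8.70 ± 0.52 with the MCD+HF diet and 7.35 ± 0.26 with metformin added. With the diet 7 of the 8 were higher (87.5%, beside 27.4% of all genes), and with metformin 4 were lower (50%, beside 2.34%). Their summed signal ran from 1328 to 7157 among NC mice, from 4038 to 8408 among MCD+HF mice and from 1886 to 2479 among MCD+HF+Met mice, and most of the NC sum was Fabp5, with a mean signal of 3350.0 ± 2539.9. Trem2 and Gpnmb were close to 0 in NC, with mean signals of 3.12 ± 1.99 and 9.57 ± 5.95, and reached 122 ± 48.7 and 1708 ± 744 with the MCD+HF diet. With metformin added they stood at 25.9 ± 13.4 and 189.5 ± 37.9. The part of these cells in the changes of Ctsk, Ctss, Ctsd, Lgmn, Psap, Atp6v0d2 and the other lysosomal genes was not tested.

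Markers of hepatocytes, 13 of 16 measured, had a mean log2 level of 12.54 ± 0.17 in the NC group, of 11.88 ± 0.16 with the MCD+HF diet and of 11.88 ± 0.12 with metformin added. Of these, 9 were lower with the diet (69.2%, beside 20.8% of all genes) and 0 were called with metformin in limma. Their summed signal ran from 118401 to 139538 among NC mice, from 64029 to 81992 among MCD+HF mice and from 71427 to 88065 among MCD+HF+Met mice. None had a group mean near 0, and Alb, which encodes serum albumin, had mean signals of 17085 ± 1206, 8436 ± 616 and 9059.6 ± 856 in the order of the groups. Markers of stellate cells and myofibroblasts stood at 6.95 ± 0.13, 8.58 ± 0.22 and 8.39 ± 0.31 in the same order. With the diet 9 of the 10 were higher (90%, beside 27.4% of all genes). The 8 endothelial markers stood at 7.11 ± 0.14, 7.20 ± 0.09 and 7.21 ± 0.03. Of 8 neutrophil markers 3 were measured, at 5.55 ± 0.57, 6.57 ± 0.31 and 6.64 ± 0.35. The 4 measured cholangiocyte markers were all higher with the diet (100%, beside 27.4%), and 0 of 10 lymphocyte markers passed the filter on dim signals. The part of these cells in the falls of Gm2a, Ctsc, Gaa, Man2b1 and Scarb2 was not tested.

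**Figure D5:**
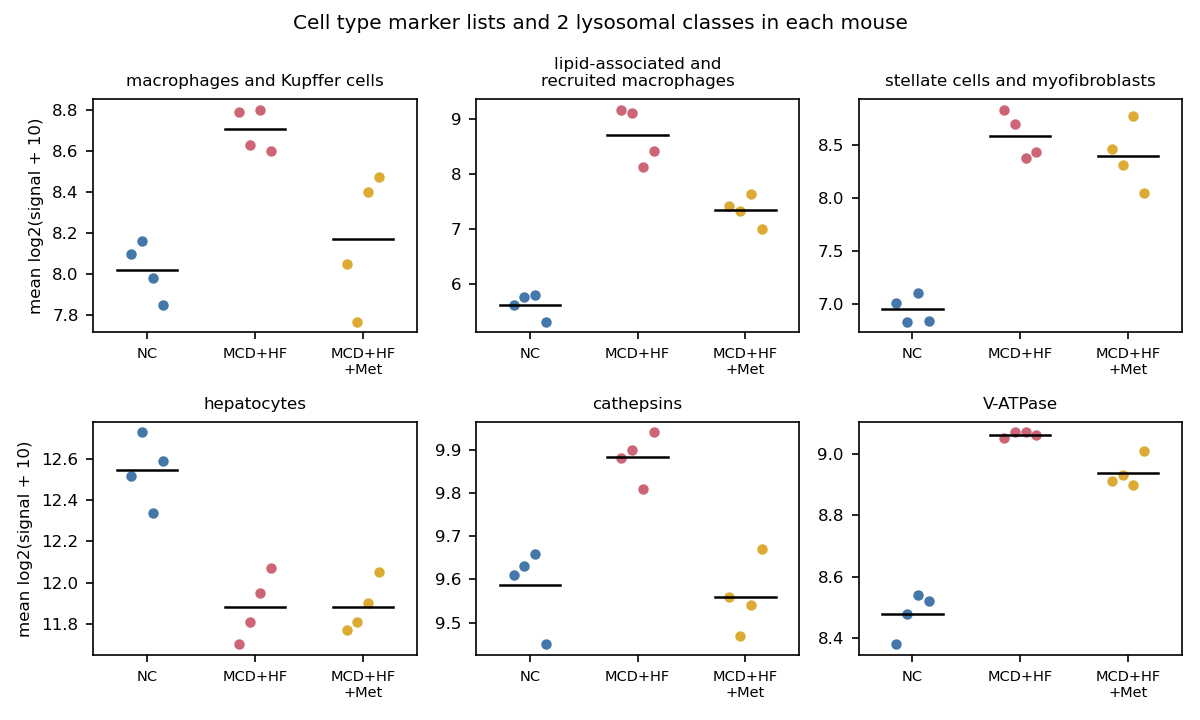
Mean log2(signal + 10) over the measured genes of 4 cell type marker lists and of the cathepsins and V-ATPase genes, 1 point per mouse, with a line at each group mean of 4 mice. In both macrophage lists every MCD+HF mouse is above every MCD+HF+Met mouse, as it is for the V-ATPase genes and the cathepsins, while the hepatocyte levels of both diet groups overlap. The lysosomal classes not drawn also overlap between MCD+HF and MCD+HF+Met. The other hydrolases ran from 8.09 to 8.24 and from 8.00 to 8.16. The activators, membrane proteins and regulators ran from 9.60 to 9.70 and from 9.59 to 9.67.

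No array stood apart from its group. Pearson's correlations of log2(signal + 10) between mice of 1 group ran from 0.971 to 0.988, and those between NC and MCD+HF from 0.894 to 0.910. The 3′ to 5′ signal ratio of beta-actin, a sign of RNA integrity on these arrays, was 1.73 ± 0.14 for NC, 1.54 ± 0.0694 for MCD+HF and 1.73 ± 0.114 for MCD+HF+Met (SD, n = 4), and that of Gapdh was 0.71 ± 0.0122, 0.699 ± 0.0123 and 0.757 ± 0.0451. The part of these ratios in the results was not tested. The number of arrays, 4 per group, limits the precision of every value.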

How the data were processed

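Total RNA of 12 livers was hybridised to Mouse Genome 430 2.0 arrays. The authors derived signal intensities with GCOS, with global scaling that set the array average to 100. As deposited, the intensities are linear and cover 45101 probe sets, including 64 controls. Each array averaged 100.0 once 2% were trimmed at both ends. The files give no scan dates, so no batch could be examined. The labels give the group and number of each mouse. They do not say that mice of 1 group were handled separately, so p-values measure the spread between these arrays.

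From the intensities log2(signal + 10) was taken, and the 22830 non-control probe sets whose signal averaged 20 or more entered limma 3.58.1 in R 4.3.3 (trend = TRUE), as 1 model of the 3 groups that left 9 residual degrees of freedom. P-values were adjusted by Benjamini-Hochberg over the 22830, and called at under 0.05. Changes are differences of mean log2(signal + 10), and folds are read from them, which understates the change of dim genes. Of the probe sets, 34945 named 1 gene, 932 named several and 9160 were unnamed here, and symbols were updated by gene identifier for 34741 from RefSeq (GRCm38.p6). The brightest probe set stood for a gene, one that can cross-hybridise (suffix _x_at) only where there was no other. Values in every mouse were given, by a fixed rule, for genes called with metformin, for the 2 largest called rises and falls of each class with the diet, and for Tfeb. Other lysosomal genes were named where called with metformin or among the 2 largest called changes of their list in either direction with the diet. The genes and lists were chosen with earlier results of these data known. The fit was tested on simulated data. Alternatives changed the offset, the filter, the scaling, the variance model, the mice, the probe set and the test.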

Additional observations from a re-analysis of the deposited data

Results flagged for a closer look

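In each of the 46 genes and 3 groups, 138 checks in all, the mouse farthest from the others was compared with the range of its group of 4. In 8 checks the gap to the nearest other mouse, as a share of the whole range, was above the 95% critical value of Dixon's test, and chance alone is expected to pass it in about 5% of groups. NC replicate 4 was high in Ctsa (679.7 against 601.6 to 604.8 in the other NC mice, gap 0.957) and low in Ctsc (1075 against 1872 to 2009, gap 0.886). NC replicate 1 was low in Glb1 (79.8 against 98.3 to 101.6, gap 0.862). MCD+HF replicate 4 was high in Gaa (147.2 against 121.3 to 122.9, gap 0.933) and in Smpd1 (480.1 against 387.0 to 396.0, gap 0.894), and MCD+HF replicate 2 was high in Ppt1 (277.9 against 237.6 to 241.3, gap 0.902). MCD+HF+Met replicate 4 was high in Ctse (118.9 against 72.7 to 77.1, gap 0.883) and MCD+HF+Met replicate 1 in Ctso (692.3 against 579.3 to 588.2, gap 0.915). No mouse was marked in more than 2 genes. Leaving out the marked mouse ended the diet call in none of Ctsc, Ctse, Ctso, Glb1, Gaa and Ppt1, and it brought Ctsa to an adjusted p of 0.0446 with the diet in limma.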

How the results depend on the processing

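Under another offset, filter, variance model, set of samples or quantile normalization, the members called stayed within 1.5 times those reported in all 3 comparisons, and no member was higher with metformin. The methods' t-test at 1.5-fold with no adjustment gave fewer: 12 higher and 3 lower with the diet, 3 lower with metformin, and 7 higher and 4 lower in MCD+HF+Met against NC. This rule was only a part of the paper's, which also required GCOS change calls and took folds from the signal log ratio. Here the folds were those of log2(signal + 10). After Benjamini-Hochberg the methods' t-test gave 0 lower with metformin, although 11 were lower and 3 higher at an unadjusted p under 0.05. The shares of all genes under these t-test rules were not counted, so whether the set stands out under them is not known. Leaving out 1 mouse at a time gave 19 to 22 higher and 6 to 10 lower with the diet, 5 to 7 lower with metformin, and 15 to 17 higher and 8 lower against NC. Among genes with a call in either fit, quantile normalization turned Ctsh (0.06) and Lamp1 (0.35) upward with the diet. Over all alternatives, other probe sets included, the diet change of Lamp2 ran from -1.31 to 0.14. Beyond changes within 0.1 of 0 in genes not called, other probe sets turned Ctse (0.91), Ctso (0.36) and Man2b1 (0.04) upward and Ctsa (-0.48), Smpd1 (-0.51), Atp6v0a1 (-0.22) and Atp6v0b (-0.22) downward with the diet, those of Ctsa and Smpd1 being called lower, and Ctse (0.69) upward and Gusb (-0.26), Smpd1 (-0.30) and Atp6v0a1 (-0.24) downward in MCD+HF+Met against NC. With metformin they turned Ctsc (0.39), Lamp2 (0.38 and 0.40), Atp6v0b (0.17 and 0.25), Atp6v0a1 (0.15), Scarb2 (0.14) and Ctsz (0.10) upward, none of them called. The cause was not tested. Correlations of the deviations of mice with the same number ran from -0.134 to 0.251. In the metformin comparison they were 0.117 and 0.251 for replicates 1 and 4 but 0.00945 and -0.00421 for the others, so the numbers were not taken to pair the mice. With the number as a replicate block, 21 were higher and 7 lower with the diet, 6 were lower with metformin, and 15 were higher and 8 lower against NC.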
